A study of Mus musculus with 123 samples.

Results

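Dorsal root ganglion (DRG) neurons that carried the transcript of P2rx3, the ATP-gated ion channel of nonpeptidergic nociceptors (NP), were compared 3 days after sciatic nerve transection (SNT). The cells were chosen by their P2rx3 and Atf3 values. A cell was P2rx3-positive above 10 CPM, counts scaled by the total of each library to a common sum of 1000000. On the SNT side it was called axotomized at an Atf3 level of 500 CPM or more, Atf3 being a transcription factor that neurons switch on after their axon is cut. The rule gave 17 axotomized cells and 16 control-side cells, 33 of the 123 libraries of the series and 33 of the 59 day 3 cells left in the table without outliers. The values of P2rx3 and Atf3 therefore describe the selection and are not results.

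Both groups came from 2 month old F1 mice of a CAST/Eij male and a C57BL/6 female. The right sciatic nerve was cut at mid-thigh, and control cells came from the DRG of the other side of the same operated mice, so every control animal had also undergone surgery. Per the labels the ganglion was L5. Single somata were picked by hand after dissociation and amplified by Smart-seq2, and the labels name no animal for any cell. All cells of a side were therefore 1 sample, the SD values below describe the spread over cells, and the groups of cells were compared without a test. A further 10 P2rx3-positive cells of the SNT side had Atf3 under 500 CPM and are called Atf3-low. They came from the same side as the axotomized cells and are given beside them.

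Small unmyelinated nociceptors of the NP class signal pain and itch from the skin. They depend on Ret, the receptor tyrosine kinase for GDNF family ligands, and they are told apart by receptors such as Mrgprd, Mrgpra3 and the interleukin 31 receptor. When a peripheral axon is cut, sensory neurons switch on a set of regeneration-associated genes (RAGs) through factors such as Atf3, Jun and Sox11, and they lose part of the channels and receptors of the resting cell.

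Near the limits, the lowest control cell inside had 13.8 CPM of P2rx3 and the highest outside had 9.47 CPM. Among SNT-side cells with Atf3 the lowest P2rx3 inside was 29.7 CPM and the highest outside was 8.35 CPM. The lowest Atf3 level of an axotomized cell was 1349 CPM, whereas the highest of an Atf3-low cell was 23.04 CPM and the highest of a control cell was 75.7 CPM. No cell lay near the Atf3 limit.

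The label "P2rx3-positive" did not describe 1 subtype in the control group. Of the 16 control cells, 6 held more than 1000 CPM of Mrgprd, the receptor of the polymodal NP class. In 2 cells Th, the enzyme that marks C-fibre low-threshold mechanoreceptors (C-LTMR), was above 1000 CPM. Another cell had 849 CPM of the itch receptor Mrgpra3. Nefh, the heavy neurofilament of myelinated neurons, was above 500 CPM in 6 other control cells, and the remaining cell held 18006 CPM of Calca, the gene of the peptide CGRP. P2rx3 was above 500 CPM in 11 of the 16 control cells and in 14 of the 17 axotomized cells.

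No axotomized cell passed the limits used above for Mrgprd, Th, Mrgpra3 or Nefh. Mrgprd was between 0 and 28.6 CPM, Mrgpra3 between 0 and 5.22 CPM, Th between 0 and 32.3 CPM and Nefh between 9.61 and 364 CPM. Ret had 390, 849 and 1179 CPM as the lowest, median and highest value against 52.6, 747 and 1300 CPM in control cells (log2 ratio 0.26). Whether the axotomized and the control cells came from the same mixture of subtypes was not tested, and for genes that mark a subtype a different mixture and a lower level per cell cannot be told apart. The 10 Atf3-low cells were mixed as well. Mrgprd was above 500 CPM in 3 of them and Mrgpra3 in 6.

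**Figure D1:**
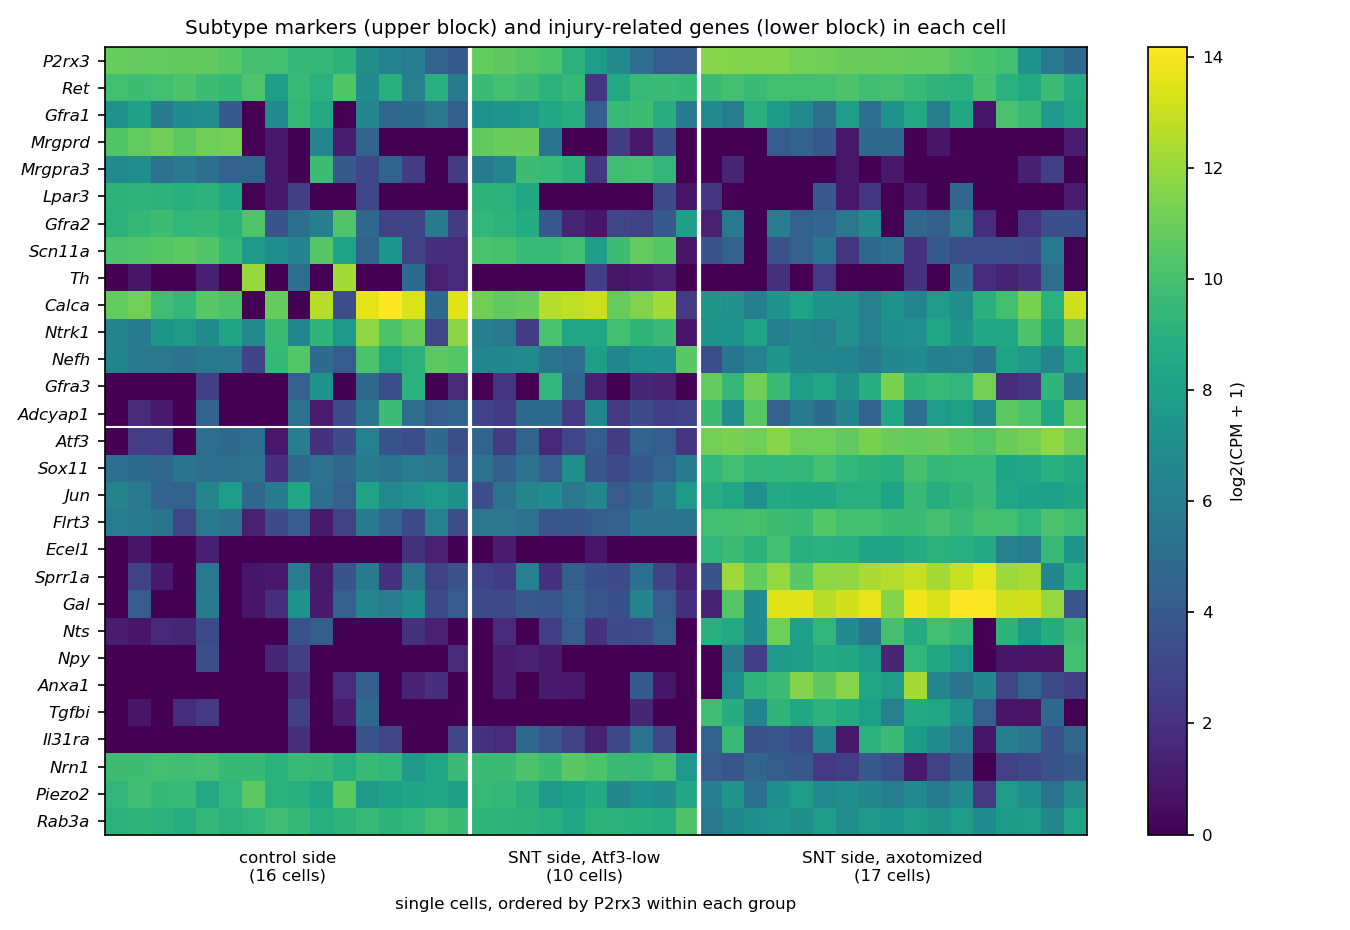
Level of subtype markers (upper block) and of genes measured after injury (lower block) as log2(CPM + 1) in each of the 16 control-side, 10 Atf3-low and 17 axotomized P2rx3-positive cells, with cells ordered by P2rx3 within a group. Mrgprd is bright in 6 control cells and dark in all axotomized cells, while Ret is bright in all axotomized cells.

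Library totals were 277390 to 1368842 (median 862619) in control cells, 994520 to 1849130 (median 1333201) in axotomized cells and 611647 to 1464669 in Atf3-low cells, and 11316 to 13790 genes had a value above 0 in a member cell. The summed level of 11 glial transcripts was 1070 to 7136 CPM in axotomized and 1128 to 14600 CPM in control cells. For 10 immune transcripts the summed level was 0 to 98.1 CPM in control cells and at most 3364 CPM in axotomized cells, where 1 cell (axotomized cell 46) held nearly all of it. In that cell the neutrophil transcripts S100a8 and S100a9 had 1710 and 1297 CPM. Ptprc, the leukocyte antigen CD45, was at 0 in 15 of 17 axotomized and in 15 of 16 control cells, and the macrophage genes C1qa, C1qb and C1qc did not exceed 2.70 CPM in any axotomized cell. Of 5 described early-response genes, which handling of tissue can induce, 1 was at a log2 ratio of 1 or more and 1 at -1 or less. The part of these transcripts in the results was not tested.

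For each gene the log2 ratio of (mean CPM + 1), axotomized over control, was formed, with the share of the 17 by 16 cell pairs in which the axotomized cell was higher. Of 24134 genes, 10816 were described, having at least 5 CPM as the mean of both group means. A gene near 0 in either group reached this minimum only through the other group and so had to differ. This also limits the list counts below. A log2 ratio of 1 or more was found for 851 genes (7.87%), and one of -1 or less for 1460 genes (13.5%). The median log2 ratio over all described genes was -0.07. In 76 genes (0.703%), Atf3 among them, every axotomized cell was above every control cell, and in 37 genes (0.342%) every axotomized cell was below every control cell. For the Atf3-low cells against the same control cells, 212 of 10725 described genes (1.98%) had a log2 ratio of 1 or more and 354 (3.3%) had one of -1 or less. Both comparisons use the same control cells.

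Among genes with the axotomized cell higher in at least 90% of pairs, the 12 largest differences upward included neuropeptides, an axon growth protein and a transporter. Ecel1, an endopeptidase of the neprilysin family that is induced in damaged neurons, was 61.8, 469 and 979 CPM (lowest, median and highest) in axotomized cells and 0, 0 and 3.191 CPM in control cells. Its groups did not overlap, and its log2 ratio was 8.39, the highest by the rule used here to name genes. In Atf3-low cells it did not exceed 1.17 CPM.

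Sprr1a, a small proline-rich protein that promotes axon outgrowth, had 11.9, 4397 and 13019 CPM in axotomized cells. Control cells had 0, 4.38 and 63.9 CPM, and Atf3-low cells 1.46, 7.71 and 71.8 CPM. The axotomized cell was higher in 98.2% of pairs, and 15 of the 17 axotomized cells were above 500 CPM (log2 ratio 8.02).

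Gal encodes galanin, a neuropeptide that injured sensory neurons release. Its values were 1.49, 9550 and 18677 CPM in axotomized cells and 0, 12.2 and 164 CPM in control cells, with a log2 ratio of 7.88. In 14 of the 17 axotomized cells Gal exceeded 1000 CPM, and the other 3, with 1.49, 12.4 and 115 CPM, were below the highest control cell. The Atf3-low cells ranged from 2.91 to 80.2 CPM. Nts, the gene of neurotensin, had 0, 440 and 2127 CPM in axotomized and 0, 0.975 and 16.9 CPM in control cells (log2 ratio 7.128).

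Sprr1a and Nts were the 2 of the 12 genes with the largest upward differences whose promoter windows held the letters TGANTCA, which AP-1 dimers of Jun and Fos or Atf proteins bind. The windows were taken from RefSeq (GRCm38.p6, 250 bases before to 50 bases after a start site) and matched by symbol. They are shown because Jun, a partner of Atf3, was higher in the same cells. The 250 bases before the start of Sprr1a lie at chr3:92485882-92486131 on the minus strand and those of Nts at chr10:102490419-102490668 on the minus strand. Capitals mark TGANTCA, and both sequences run 5′ to 3′ toward the gene.
Sprr1a: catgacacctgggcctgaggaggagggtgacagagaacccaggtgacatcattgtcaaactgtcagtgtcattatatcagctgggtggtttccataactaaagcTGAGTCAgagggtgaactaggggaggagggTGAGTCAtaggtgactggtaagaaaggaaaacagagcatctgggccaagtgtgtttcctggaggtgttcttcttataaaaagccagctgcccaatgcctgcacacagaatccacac
Nts: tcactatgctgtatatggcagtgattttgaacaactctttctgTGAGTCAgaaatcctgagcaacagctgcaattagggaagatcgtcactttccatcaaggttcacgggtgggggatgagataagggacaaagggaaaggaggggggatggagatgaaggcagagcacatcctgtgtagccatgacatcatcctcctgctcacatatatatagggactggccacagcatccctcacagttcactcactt

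In Sprr1a the matches began at positions -146 and -116 from the start site, and in Nts at -207. TGANTCA is its own reverse complement, so 1 search covers both strands. The CRE letters TGACGTCA, also their own reverse complement, do not contain TGANTCA and were found for 0 of the 12 genes. TGANTCA was found for 2425 of all 27025 genes with a window (8.97%) and for 484 of the 8227 described genes with one (5.88%). It was found for 69 of 621 genes with a log2 ratio of 1 or more (11.1%) and for 72 of 1079 with a ratio of -1 or less (6.67%). A match describes letters in the window and says nothing about binding in these cells.

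The other genes among the 12 largest upward differences had log2 ratios between 5.87 and 8.35. Anxa1, the phospholipid-binding protein annexin A1, varied widely between cells, with 0, 122 and 4867 CPM against 0, 0 and 18.0 CPM in control cells. Tgfbi, an extracellular matrix protein induced by TGF-beta, had 0, 268 and 911 CPM against 0, 0 and 25.2 CPM. Slc6a4 encodes the serotonin transporter and had 0, 111 and 538 CPM, while no control cell exceeded 5.56 CPM. Lmo7, a protein of cell junctions, was above every control cell in every axotomized cell, with 17.8 CPM as its lowest axotomized and 10.8 CPM as its highest control value.

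Il31ra, the receptor subunit for the itch cytokine interleukin 31, had 0.84, 47.4 and 801 CPM against at most 10.8 CPM in control cells. It was above 500 CPM in 3 of the 17 axotomized cells. Inhbb encodes an activin subunit and had 1.08, 60.0 and 126 CPM, and the control cells together held 1 count. The ratio of its summed counts, scaled by the library totals, was 822 with an exact 95% interval of 147 to 32471 that covers counting error only. Wfdc3 and 4933402N22Rik, whose roles in neurons are not described here, had log2 ratios of 6.56 and 6.01.

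**Figure D2:**
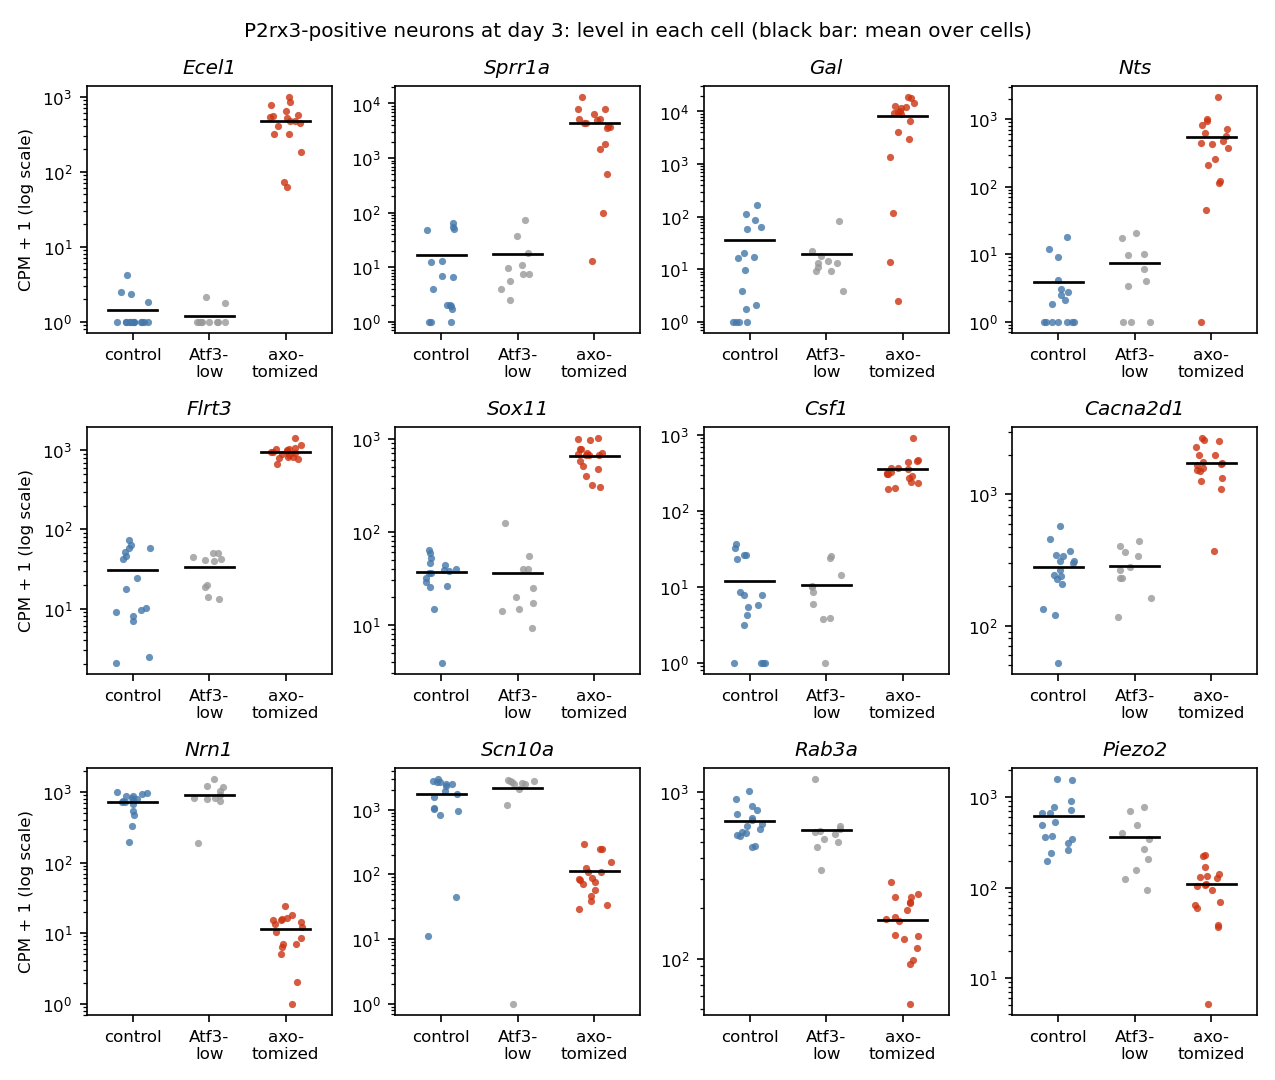
CPM + 1 on a log axis in each control-side (16), Atf3-low (10) and axotomized (17) P2rx3-positive cell for 12 genes, with black bars for the mean over cells. For Ecel1, Flrt3, Sox11 and Csf1 every axotomized cell is above every control cell, and for Nrn1 and Rab3a every axotomized cell is below.

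Downward, among genes with the axotomized cell higher in at most 10% of pairs, the largest difference was in Nrn1, the gene of neuritin, a membrane-anchored protein that promotes neurite growth. Axotomized cells had 0, 11.4 and 23.5 CPM, control cells 193, 749 and 994 CPM and Atf3-low cells 189, 853 and 1516 CPM. The groups did not overlap, and the log2 ratio was -5.97. Trib2, a Tribbles pseudokinase, had 0, 0 and 5.95 CPM against 21.2, 94.5 and 286 CPM (log2 ratio -5.89). Amigo3, an adhesion protein that acts with the Nogo receptor complex, had 0, 1.31 and 29.3 CPM against 51.3, 187 and 237 CPM, again without overlap.

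Dpp10, an auxiliary subunit of Kv4 potassium channels, and Kcna2, a Kv1 channel subunit that limits firing, were also lower in every axotomized cell than in any control cell, with log2 ratios of -5.06 and -4.59. For these 5 genes the groups did not overlap, as for 37 of all 10816 described genes (0.342%) on the lower side. They were named by the size of the same difference. Dpp10 nearly touched, with 19.5 CPM as the highest axotomized and 20.7 CPM as the lowest control value. So did Kcna2, with 66.7 and 69.5 CPM. The groups overlapped for Mrgpra3 (log2 ratio -5.71), which in control cells ranged from 0 to 849 CPM. Mrgpra1, Mrgpra3 and other genes within the Mrgpra or the Mrgprb cluster are similar in sequence, so how reads were divided among them is uncertain. Calca and Calcb are similar in part, so the same may hold for them. Calcb, the second CGRP gene, had 0, 3.75 and 130 CPM in axotomized and 2.78, 493 and 1196 CPM in control cells.

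The cell polarity gene Inadl, the ubiquitin ligase gene Rnf112, the receptor tyrosine kinase signalling antagonist Spry4 and the thymidine kinase gene Tk1 completed the 12. Their log2 ratios ran from -4.49 to -4.58. In Atf3-low cells Mrgpra3 was higher than in control cells (log2 ratio 2.56), Kcna2 and Spry4 were lower (-1.08 and -1.34), and the other 9 genes lay between -0.97 and 0.81.

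Injury transcription factors were higher as a group. Of 19 listed, Atf3 left out, 18 were described, 10 had a log2 ratio of 1 or more and 0 had one of -1 or less. Over all described genes 7.87% were at 1 or more and 13.5% at -1 or less, the shares beside which each list below stands. The median of the injury factors was 1.41, against -0.07 over all genes and -0.32 for the same list in Atf3-low cells. Sox11, a factor of neuronal differentiation needed for regrowth, had 305, 678 and 1017 CPM in axotomized and 2.89, 36.1 and 62.2 CPM in control cells. Its groups were clearly apart (log2 ratio 4.18). Those of Klf6, a Krüppel-like factor that supports axon growth, did not overlap but nearly touched, with 121 CPM as the lowest axotomized and 112 CPM as the highest control value. Jun had 143, 355 and 817 CPM against 19.1, 84.8 and 356 CPM, so that single cells of the 2 groups overlapped. The leucine zipper factors Nfil3 and Fosl2 had log2 ratios of 2.99 and 2.83, whereas the cytokine-signalling factor Stat3 was at 0.54.

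Of 29 RAG effector genes, 28 were described, 18 had a log2 ratio of 1 or more and 1, Nrn1, had one of -1 or less (median 1.57). Ecel1 and Anxa1, with control means of 0.427 and 1.73 CPM, reached the minimum of 5 CPM only through the axotomized cells. They therefore had to count as higher. In 8 of the 28 described effector genes every axotomized cell exceeded every control cell, against 76 of all 10816 described genes (0.703%). Flrt3, an adhesion protein of growing axons, had 664, 946 and 1422 CPM (mean 954 ± 174, SD over 17 cells) against 1.06, 20.04 and 71.7 CPM. Stmn4, a microtubule regulator of the stathmin family, had 104, 214 and 491 CPM against 0, 0 and 19.6 CPM. Gap43, a growth cone protein, had 1174, 1984 and 3294 CPM, and 0, 31.8 and 1370 CPM in control cells. Hspb1, a small heat shock protein that protects injured neurons, was at 1.79 and the neuronal tubulin Tubb3, whose reads may be shared with other tubulins, at 0.998 on the log2 scale.

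Neuropeptides and secreted signals split in both directions. Of 29 listed genes 17 were described, 12 at a log2 ratio of 1 or more and 5 at -1 or less. The median was 3.59, and 4.88 with genes absent from control cells set at their lower bound. Members such as Npy, Nts, Ucn, Crh, Inhba, Inhbb and Nppb reached the minimum of 5 CPM only through the axotomized cells and so had to differ, which limits what this count and median show. Csf1, the macrophage growth factor that injured sensory neurons send to microglia, had 193, 314 and 901 CPM against 0, 5.77 and 35.6 CPM, without overlap. Npy, the gene of neuropeptide Y, was above 10 CPM in 10 of 17 axotomized cells and in 0 of 16 control cells, and its axotomized values ran from 0 to 967 CPM. Adcyap1, the gene of the peptide PACAP, had 19.4, 217 and 1883 CPM, while 1 control cell reached 895 CPM and the median control cell 5.28 CPM.

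The control libraries held 0 counts of Crh, Inhba and Nppb. With 3 counts over the group as the limit, Crh was at least 56.5-fold and Inhba at least 52.6-fold higher in axotomized cells. Nppb, a peptide of itch neurons, was at least 74.2-fold higher, but 1 cell supplied 343 CPM and the median axotomized cell had 0. The peptide gene Ucn (urocortin) had a ratio of summed, scaled counts of 948 over the control cells, with an exact 95% interval of 170 to 37449. Axotomized cells 11 and 27 held 359 and 346 CPM of Ucn. No other axotomized cell exceeded 104 CPM, and several had 0. The genes on the lower side were Calcb, Tac1 (substance P), Nmb (neuromedin B), Calca and Bdnf. Calca had 65.8, 163 and 9267 CPM in axotomized and 0, 1641 and 18006 CPM in control cells, with the axotomized cell higher in 31.2% of pairs.

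**Figure D3:**
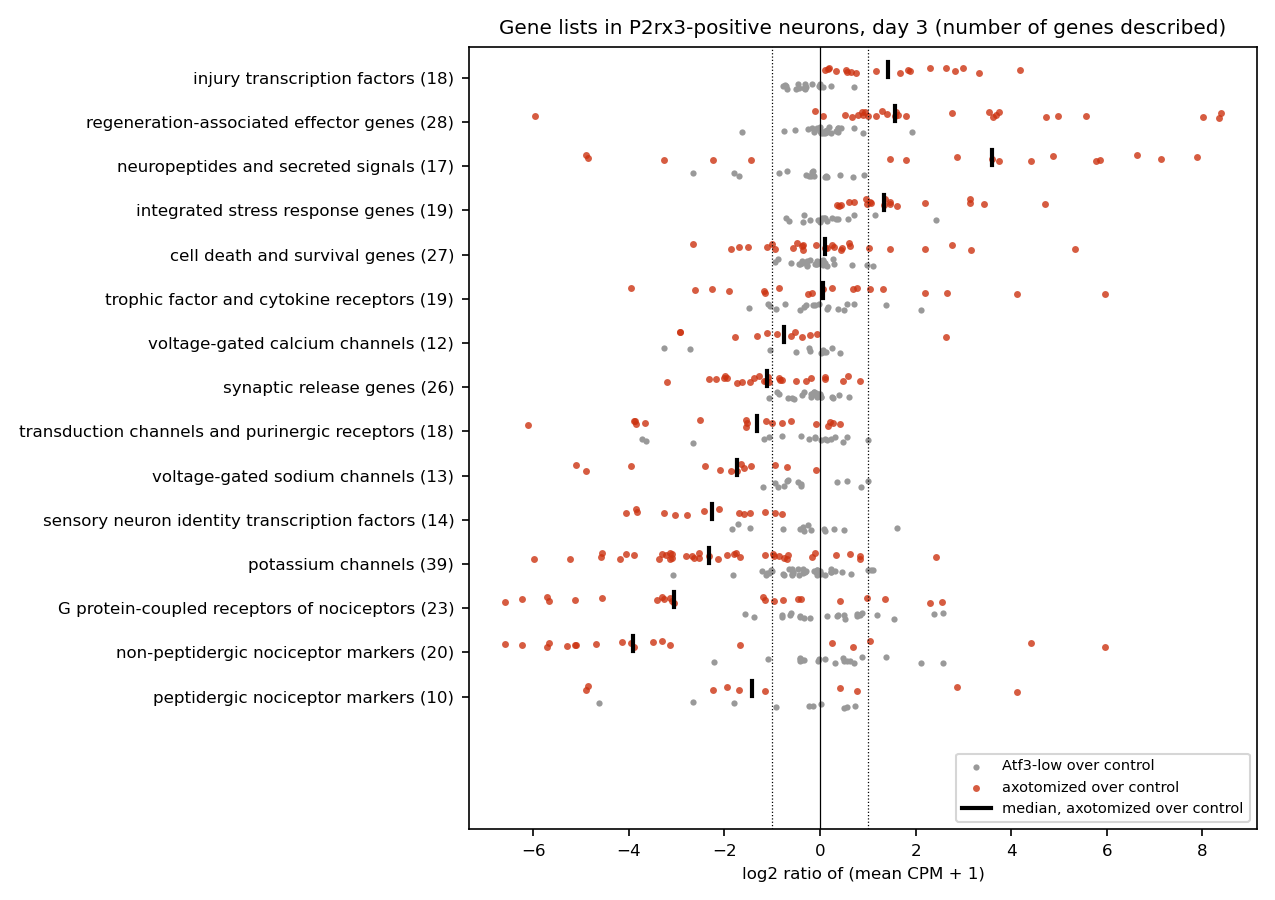
Log2 ratio of (mean CPM + 1) for each described gene of 15 lists, axotomized over control (red) and Atf3-low over control (grey), with a black bar at the axotomized median and dotted lines at 1 and -1. The red medians run from 3.59 for neuropeptides to -3.92 for NP markers, while the Atf3-low medians of these lists lie between -0.47 and 0.40.

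The markers of the NP class were mostly lower. P2rx3 left out, 22 were listed, 20 described, 3 at a log2 ratio of 1 or more and 15 at -1 or less, with a median of -3.92, and 0.40 in Atf3-low cells. The 3 higher ones were Il31ra, Nppb and Gfra1. Il31ra and Nppb reached the minimum of 5 CPM only through the axotomized cells. Mrgpra3, Mrgprb5, Lpar3, Lpar5 and Agtr1a reached it only through the control cells. All of these had to differ, which limits what the count and the median show. Mrgprd was above 1000 CPM in 6 control cells and in 0 axotomized cells (log2 ratio -6.60). Lpar3, a lysophosphatidic acid receptor of the same cells, ranged up to 597 CPM in control and 26.3 CPM in axotomized cells. The axotomized cell was nevertheless higher in 32.7% of pairs for Mrgprd and in 35.8% for Lpar3. For Mrgprb5, another Mrgpr receptor gene, the ratio of control over axotomized counts was 677 with an interval of 231 to 3286. Gfra2, the neurturin co-receptor, had 0, 18.5 and 110 CPM against 4.57, 317 and 1262 CPM.

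Other GDNF family co-receptors went the other way. Gfra3, the artemin co-receptor that is normally a marker of peptidergic nociceptors (PEP), had 2.55, 623 and 2535 CPM in axotomized and 0, 0 and 539 CPM in control cells (log2 ratio 4.11). Gfra1, the GDNF co-receptor, was at a log2 ratio of 1.04 with overlapping groups, and at 0.44 with P2rx3 above 500 CPM in both groups. Over 25 trophic factor and cytokine receptors, 19 described, 6 were at 1 or more and 6 at -1 or less (median 0.06). Acvr1, an activin and BMP receptor, was at 2.65 and the insulin-like growth factor receptor Igf1r at -2.27. Of 12 PEP markers, 10 were described, 2 of them (Gfra3 and Adcyap1) at 1 or more and 6 at -1 or less. All 5 described C-LTMR markers and 8 of 11 described markers of large myelinated neurons were at -1 or less, and 0 of both lists were at 1 or more. The axotomized cell was nevertheless higher in 48.9% of pairs for Th, 50.0% for Fam19a4 and 52.2% for Zfp521. For P2ry1 and Piezo2 the shares were 12.1% and 0.735%. For the 8 markers of large myelinated neurons they ran from 19.9% (Cntnap2) to 56.25% (Slc17a7). The part of the subtype mixture in these ratios was not tested. With P2rx3 above 500 CPM in both groups, 4 of 10 markers of large myelinated neurons were at -1 or less.

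With P2rx3 above 500 CPM required in both groups, 14 axotomized and 11 control cells remained. This limit was added after the data were seen. It left 1014 genes at a log2 ratio of 1 or more and 1449 at -1 or less, of 10707 described. Trpv1, the heat and capsaicin channel of nociceptors, was at 0.42 by the original rule, with 0, 15.1 and 855 CPM against 0, 3.82 and 701 CPM, and at 3.09 under the limit of 500 CPM. PEP markers then had 5 genes at 1 or more and 3 at -1 or less, and Adcyap1 stood at 5.57.

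Most voltage-gated sodium channels were lower. Of 14 listed, 13 were described, 0 at 1 or more and 10 at -1 or less (median -1.74, and -0.47 in Atf3-low cells). The shares over all described genes were 7.87% and 13.5%. Scn10a, which encodes the tetrodotoxin-resistant channel Nav1.8 of nociceptors, had 28.1, 84.8 and 297 CPM in axotomized cells and 10.2, 1858 and 2958 CPM in control cells. All but 2 control cells, with 10.2 and 44.4 CPM, were above the highest axotomized value. Scn11a, encoding Nav1.9, had 0, 10.5 and 53.1 CPM against 2.29, 251 and 1593 CPM (log2 ratio -5.10). Scn9a, encoding Nav1.7, was lower by less, with 125, 222 and 446 CPM against 148, 701 and 1157 CPM (log2 ratio -1.60). In Atf3-low cells the ratios of Scn10a and Scn11a to control cells were 0.35 and 0.56. Control cells with Nefh above 500 CPM had 104 to 379 CPM of Scn8a, also counted at -1 or less. Those with Mrgprd above 1000 CPM had 1.79 to 23.8 CPM, and axotomized cells 0.883 to 92.5 CPM. Scn11a went the other way, with 2.29 to 132 CPM and 700 to 1593 CPM in these 2 sets of control cells. The part of the subtype mixture in these ratios was not tested.

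Most potassium channel genes were lower as well. Of 44 listed, 39 were described, 26 at -1 or less (13.5% over all described genes) and 1 at 1 or more (7.87%), with a median of -2.33. The largest differences were in Kcnip2, a Kv4 channel partner (-5.98), Kcnmb1, a subunit of the calcium-activated BK channel (-5.23), and Kcna2 (-4.59). The BK subunit Kcnmb4 went upward, from 0, 4.24 and 21.6 CPM in control cells to 3.358, 31.2 and 80.9 CPM. Among calcium channels, 12 of 15 described, 5 were at -1 or less (13.5% over all described genes) and 1 at 1 or more (7.87%). The latter was Cacna2d1, the alpha2delta subunit that gabapentin binds, with 370, 1706 and 2680 CPM against 51.2, 282 and 578 CPM (log2 ratio 2.63).

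**Figure D4:**
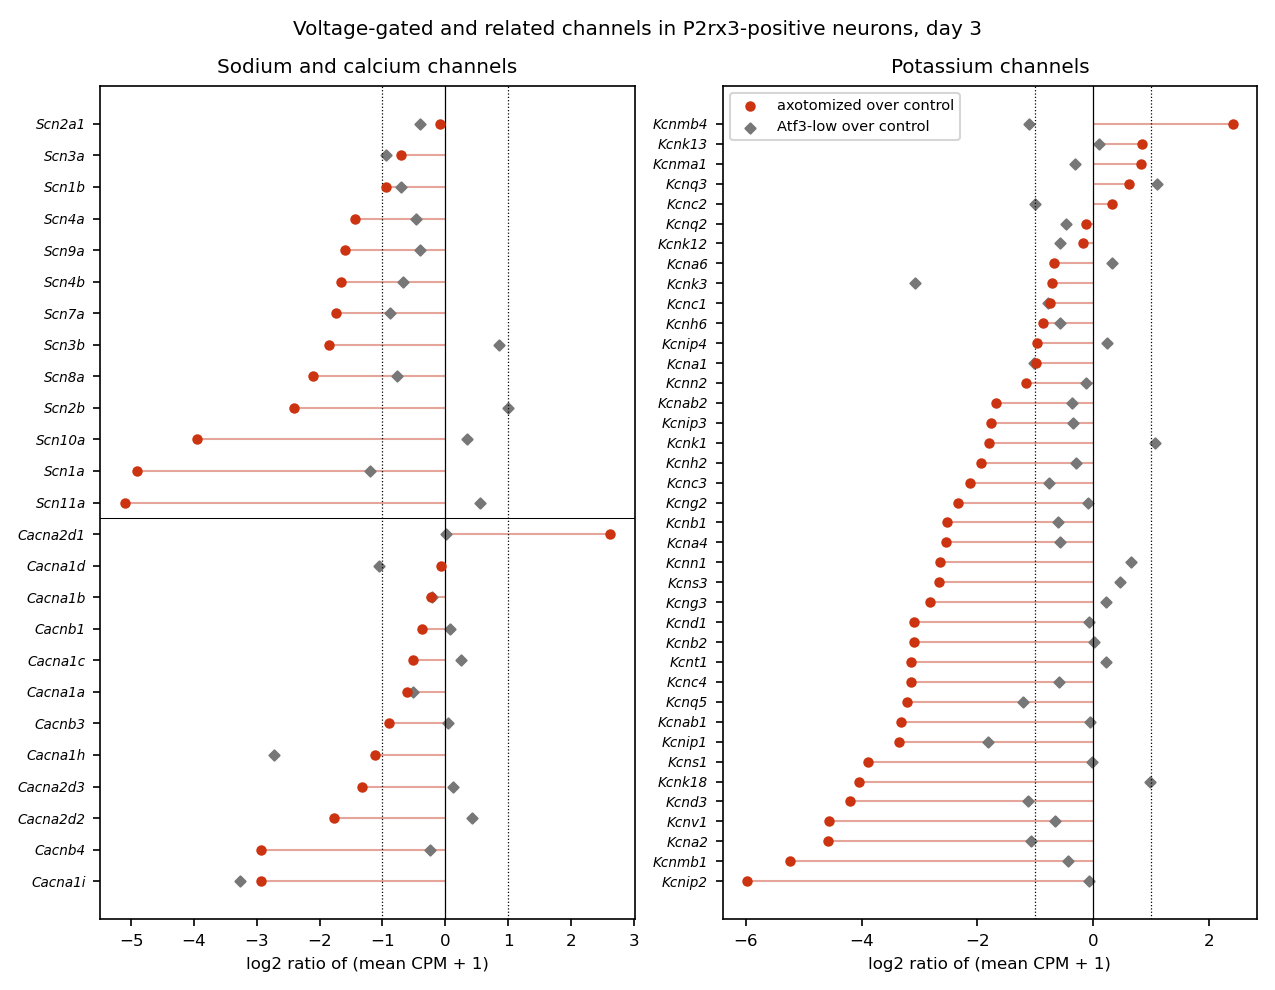
Log2 ratio of (mean CPM + 1) for the described sodium (upper left), calcium (lower left) and potassium (right) channel genes, axotomized over control (red circles) and Atf3-low over control (grey diamonds), with dotted lines at 1 and -1. Cacna2d1 at 2.63 and Kcnmb4 at 2.42 are the red circles to the right of 1.

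Sensory transduction genes differed downward. Of 29 listed, P2rx3 left out, 26 were in the table and 18 were described. Of these 11 were at -1 or less (13.5% over all described genes) and 0 at 1 or more (7.87%). Piezo2, the mechanically gated channel of touch, had 4.20, 106 and 227 CPM against 195, 509 and 1586 CPM, and the axotomized cell was higher in 0.735% of pairs. Trpa1, the irritant channel, ranged up to 37.8 CPM in axotomized and 341 CPM in control cells (log2 ratio -3.88). Of 23 described G protein-coupled receptors, 14 were at -1 or less, among them the mu opioid receptor Oprm1 (-3.42). Htr1d, Npy1r and Npy2r were the 3 at 1 or more.

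Of 27 genes of synaptic release, 26 were described, 15 at -1 or less (13.5% over all described genes) and 0 at 1 or more (7.87%), with a median of -1.11. Among members at -1 or less, Sv2b, Syt2 and Cplx2 were at 0.997, 0.54 and 0.12 by medians over cells. In control cells with Nefh above 500 CPM, Syt2 had 54.2 to 511 CPM. With Mrgprd above 1000 CPM it did not exceed 0.902 CPM. Rab3a, a vesicle GTPase, had 52.8, 173 and 288 CPM against 464, 631 and 1002 CPM, without overlap. Snap25, a SNARE protein of the plasma membrane, was at -1.73 with 157, 366 and 1030 CPM against 357, 1228 and 3938 CPM. Control cells with Nefh above 500 CPM had 1321 to 3938 CPM of Snap25. Those with Mrgprd above 1000 CPM had 357 to 884 CPM. The part of the subtype mixture in these ratios was not tested. Transcription factors of sensory neuron identity were 14 described of 23 listed, 12 of them at -1 or less (median -2.27). Etv5, an ETS factor downstream of neurotrophins, was at -4.06, Prdm12, a determinant of nociceptors, at -3.04 and the LIM factor Isl1 at -1.46.

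Genes of cell death and survival went both ways, and their median of 0.11 was near that of all genes. Of 31 listed, 27 were described, 6 at 1 or more (7.87% over all described genes) and 6 at -1 or less (13.5%). Pmaip1, which encodes the BH3-only protein Noxa, had 0, 35.2 and 498 CPM against 0, 0 and 11.7 CPM. Members such as Pmaip1, Casp6 and Gadd45b reached the minimum of 5 CPM only through the axotomized cells. They had to count as higher, which limits what the count and the median show. Pdcd2, named for programmed cell death, was at 1.47 with overlapping groups. On the lower side, the survival gene Bcl2 was at -2.65 and Oxr1, which protects against oxidative damage, at -1.87, while Bax was at 0.26.

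The integrated stress response is the programme of the translation factor eIF2alpha and Atf4. Of its 19 described members 12 were at 1 or more (7.87% over all described genes) and 0 at -1 or less (13.5%). Their median was 1.34, and 0.04 in Atf3-low cells. Atf4 had 124, 245 and 508 CPM against 20.2, 86.7 and 204 CPM. Chac1, which degrades glutathione, had 2.83, 139 and 576 CPM against 0, 5.36 and 66.4 CPM, and the mitochondrial folate enzyme Mthfd2 73.0, 182 and 333 CPM against 8.35, 37.99 and 79.3 CPM. Slc7a3, a carrier of basic amino acids, had a count ratio of 190 (exact 95% interval 64.7 to 921). Axotomized cell 43 held 402 CPM of it, and no other axotomized cell exceeded 60.9 CPM. Trib3, a pseudokinase induced by Atf4, had 6.595, 30.04 and 108 CPM against 0, 1.95 and 11.1 CPM. Members such as Slc7a3 and Sesn2 reached the minimum of 5 CPM only through the axotomized cells and so had to differ. This limits what the count and the median show. Ddit3 (CHOP) was at 0.95.

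The 13 SNT-side cells with Atf3 but P2rx3 at or below 10 CPM gave values for the same genes. Sprr1a was 1473, 2868 and 10283 CPM there, and Flrt3 380, 682 and 1164 CPM, against 664, 946 and 1422 CPM in the P2rx3-positive axotomized cells. Ecel1 had a median of 1.35 CPM in them and 469 CPM in the P2rx3-positive axotomized cells. The medians were 0 and 268 CPM for Tgfbi, 84.4 and 245 CPM for Atf4, 7.62 and 139 CPM for Chac1, and 43.1 and 182 CPM for Mthfd2. These differences were not tested, since the cells came from the same sample and were split by a gene measured in them.

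The axotomized cells also differed among themselves. Cell 13, with the highest P2rx3 level of 3087 CPM, had 1.49 CPM of Gal, 11.9 CPM of Sprr1a and 472 CPM of Nts. Cell 11 had the lowest P2rx3 level, 29.7 CPM, together with 9267 CPM of Calca, 967 CPM of Npy and 12.4 CPM of Gal. Anxa1 exceeded 1000 CPM in 4 cells and was at or below 10 CPM in 4. Sox11, Flrt3, Csf1 and Ecel1 were above the control range in all 17, these cells included.

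In the pooled libraries of the same day, 3 technical parts of 1 pool of neurons per side, the P2rx3 and Atf3 rule was not used, and all neuron types were present. Fewer cells of a type and less RNA per cell cannot be told apart in them. The test compares 2 pools, not animals. The column names and the accession line of the same table pair the sides in opposite ways. The names were used, and under the other pairing every pooled difference would change sign, Atf3 included. The names gave Atf3 at 12.8 ± 6.71 CPM in the control pool and 1551 ± 125 CPM in the SNT pool (SD, n = 3). The labels' source field calls all 6 libraries intact.

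With Benjamini-Hochberg adjusted p-values from the quasi-likelihood test of edgeR, 1196 of 13509 genes (8.85%) rose at least to a log2 change of 1 and 961 (7.1%) fell as far. All 12 genes with the largest upward difference in single cells rose, among them Gal by 9.10 ± 0.19 (log2, SE, edgeR adjusted p = 1.05e-31) and Nts by 9.52 ± 0.30 (edgeR adjusted p = 8.89e-26). Of the 12 downward genes 11 fell past the limit, Nrn1 with a log2 change of -2.67 ± 0.15 (edgeR adjusted p = 3.21e-17), and Mrgpra3 was at -0.94 ± 0.18 (edgeR adjusted p = 6.45e-05). Injury factors had 8 of 18 tested genes up and 0 down, and RAG effectors 18 of 28 up and 1 down.

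The counts of other lists in the pools and in the single cells were not tested against each other. Of 20 integrated stress response genes in the pools 3 rose and 2 fell, and Atf4 was at 0.36 ± 0.20 (edgeR adjusted p = 0.201). Sodium channels had 2 of 13 up and 3 down, with Scn10a at -1.82 ± 0.13 (edgeR adjusted p = 9.34e-15) and Scn11a at -1.88 ± 0.14 (edgeR adjusted p = 7.82e-14). NP markers had 3 of 20 up and 14 down. Trpv1 fell by 3.04 on the log2 scale (edgeR adjusted p = 5.59e-14), whereas its ratio in P2rx3-positive cells was 0.42.

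At day 7, in other mice and with longer reads, the same limits left 1 axotomized P2rx3-positive cell beside 8 control-side and 9 Atf3-low cells. That cell had 8330 CPM of Gal, 3707 CPM of Sprr1a, 402 CPM of Nts, 3191 CPM of Npy and 124 CPM of Ecel1. The highest values of the 8 control cells were 16.6 CPM for Gal and 2.78 CPM for Sprr1a, and Nts, Npy and Ecel1 were listed at 0 in all 8. On the lower side it had 5.45 CPM of Nrn1, against 230 to 898 CPM in the 8 control cells, and 169 CPM of Rab3a, against 369 to 660 CPM. Piezo2, at 833 CPM, lay within the control range of 224 to 1201 CPM, and Tgfbi and Anxa1 were listed at 0. The summed level of 7 erythrocyte transcripts was 5002 CPM in this cell, against at most 29.4 CPM in the day 3 axotomized and 94.1 CPM in the day 3 control cells, and its part in these values was not tested. One cell gives no spread.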

How the data were processed

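The authors aligned reads with Bowtie2 to mm9 and estimated expression with RSEM on RefSeq exons, after base calling in CASAVA 1.8.2. The deposited values, in tables named TPM, are expected counts by their form: column totals differ, and between 61.7% and 84.3% of nonzero entries per member library are whole. Values were scaled to CPM in Python 3.11.15 (numpy 2.4.6, pandas 2.3.3, scipy 1.17.1) and plotted with matplotlib 3.10.9, with a pseudocount of 1 CPM. Groups of cells were not tested against each other, because no label ties cells to animals.

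Genes were named by a rule: the 12 largest log2 ratios each way where the mean of the higher group reached 20 CPM and the axotomized cell higher in at least 90% or at most 10% of pairs, Atf3 and P2rx3 left out, and of each list up to 5 each way plus genes with a stated role. Members and lists were chosen with earlier results of these data known. Pooled expected counts were rounded and tested with edgeR 4.0.16 in R 4.3.3 (limma 3.58.1 installed), with TMM factors, a minimum mean of 1 CPM and a prior count of 0.125. Calls required an adjusted p below 0.05. DESeq2 1.42.0 was an alternative. Pooled totals were 563462 to 2003817. Both scripts were tested on simulated data. Libraries carry no molecular identifiers, so intervals and limits of 3 counts cover counting error only. The strand of reads is not given in the sources used here, so overlapping genes cannot be told apart. No 2 member libraries were identical. Gene coordinates in mm9 were not used here, and promoter windows come from GRCm38.p6.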

Additional observations from a re-analysis of the deposited data

Results flagged for a closer look

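In the 10 Atf3-low cells the highest or lowest cell of 7 of the 24 genes named by size stood apart from the other 9 by Dixon's gap test on log2(CPM + 1). Chance flags about 1 in 20 groups of values without ties. Where the other cells are at or near 0, as for Tgfbi, Inhbb and 4933402N22Rik, any single value above 0 is flagged by construction. Anxa1 had 13.8 CPM in 1 cell and at most 1.17 CPM in the others. That same cell, Atf3-low cell 1, held 1.84 CPM of Tgfbi and 1.84 CPM of Inhbb, both at 0 in the other 9. The gene 4933402N22Rik had 2.86 CPM in Atf3-low cell 6. Atf3-low cell 18 had the lowest level of Nrn1, 189 CPM against at least 756 CPM in the others, and of Calcb, 0.852 CPM against at least 116 CPM. In that cell Nefh was at 1482 CPM and Scn11a at 0.728 CPM. Dpp10 was at 0.759 CPM in Atf3-low cell 31 and at least 99.8 CPM in the other 9.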

How the results depend on the processing

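The counts of 851 genes at a log2 ratio of 1 or more and 1460 at -1 or less moved by over 1.5 times in these cases: 537 and 861 with a pseudocount of 10 CPM, 524 and 810 with a minimum of 20 CPM, and 1325 upward with no minimum. TMM factors on summed counts gave 967 and 1311, and the table with all cells gave 865 and 1704 with 20 control cells. Thinning each member cell to 270000 counts gave 887 and 1495. Of 145 genes named, 138 were past a log2 ratio of 1 in either direction, and 9 of these changed sign in 14 cases. Changes of sign in the remaining genes were not counted. A further 58 gene values moved by at least the pooled SD of log2(CPM + 1) over cells. Gpx3 (PEP marker, -1.95) was at 1.29 by medians, at 2.13 with P2rx3 above 100 CPM and at 2.10 above 500 CPM. Stxbp6 was at 0.0604 and 0.0617 with these limits and at 0.0690 without the highest cell of each group. By medians, Nefh was at 0.32, Zfp521 at 0.47 and the synaptic release genes Sv2b, Syt2 and Cplx2 at 0.997, 0.54 and 0.12. Cdh19 was at -1.71 in the table with all cells. Lyz2 was at -1.27 without the axotomized cell that held S100a8, a setting chosen after seeing the data, and at -0.72 without the highest cells. The cause was not tested.

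For the pooled libraries, leaving out 1 library in turn gave 1067 to 1181 genes up and 809 to 969 down, and DESeq2 gave 953 and 808. With the library number as a replicate block the counts were 1137 and 872. Same-numbered libraries deviated together with correlations of 0.089, -0.003 and -0.016, so the numbers do not pair them. Cell numbers pair nothing. The depth of 277390 counts in the shallowest control cell limits genes of low level there.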
